A study of Homo sapiens and Mus musculus with 21 samples.

Results

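Xenografts of SW620, a human colon carcinoma line from a lymph node metastasis, were compared between cells targeted at the Wnt co-receptor gene LRP6 (LRP6KO) and their CRISPR control (Cas9). The comparison takes the human genes of 6 of the 21 samples of the series, 3 libraries labelled LRP6KO and 3 labelled Cas9, chosen by those labels alone. The human table holds 18 xenograft libraries, and the remaining 12 are SW480 and SW620 tumours with dnLEF1 or Mock. LRP6KO cells had received an LRP6 CRISPR construct together with an eGFP and puromycin resistance construct, were selected with puromycin and were then sorted by flow cytometry for low LRP6 protein. Cas9 cells had been mock transfected with CRISPR/Cas9 and sorted, and the labels do not say on what. The labels do not say whether either population is a single clone. All cells were injected into the caecum wall of NSG mice, an immunodeficient strain, and the caecum was taken on day 28. SW620 cells carrying dnLEF1, a dominant negative form of the transcription factor LEF1, serve below as a perturbation aimed at the same pathway. Their Mock control, labelled as mock transduced with lentivirus, also serves as a second reference for some genes. All 18 xenograft libraries entered the fit that gave the p-values per gene.

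LRP6 sits at the cell surface beside a Frizzled receptor. When a secreted Wnt protein binds both, the complex that marks beta-catenin for destruction is held at the membrane, beta-catenin accumulates, and together with TCF and LEF factors it switches on target genes in the nucleus. In colon epithelium this pathway maintains the stem cells of the crypt. Many colon carcinomas carry a truncated APC protein, a part of the destruction complex, and then keep beta-catenin high downstream of the receptors.

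Values are TPM, transcript abundance per gene after correction for transcript length, scaled to a total of 1000000 human TPM per library, so the sequencing depth is unknown. Differences are LRP6KO minus Cas9 in mean log2(TPM + 1), a scale that understates the change of genes at low levels, and each is based on 3 libraries per group. The labels do not state that each replicate came from its own animal, so p-values measure only the spread between these libraries. RNA of a whole caecum piece was sequenced, and fewer cells of a type cannot be told apart from less RNA per cell. Between 26964 and 34114 human genes were above 0 in LRP6KO libraries and between 26374 and 29691 in Cas9 libraries. Libraries of the same group correlated at 0.938 to 0.967 over genes, and libraries of different groups at 0.937 to 0.967. Of the 12 markers of epithelial carcinoma cells, CDX1, GPA33 and CEACAM5 were under 1 TPM in all 6 libraries. The keratin genes KRT8 and KRT18 were at 4307 TPM or more in all 6, and the summed level of the list was 12027 to 13047 TPM in LRP6KO and 11034 to 14336 TPM in Cas9.

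No human gene differed between LRP6KO and Cas9 at an adjusted p under 0.05 (limma, Benjamini-Hochberg adjustment), 0 of 22981 genes tested, or 0%. At an unadjusted p under 0.05 there were 766 genes (3.33%), 463 higher (2.01%) and 303 lower (1.32%) in LRP6KO. The smallest adjusted p was 0.0805 over all genes and 0.544 over the 14252 protein-coding genes tested. The libraries of the groups did not overlap for 2223 genes (9.67%), 1306 of them higher (5.68%) and 917 lower (3.99%) in LRP6KO. The median difference over all genes was 0.07, the quartiles were -0.10 and 0.25, and 60.1% of genes lay above 0. The higher genes made up 60.4% of those with an unadjusted p under 0.05. With median-ratio scaling of the libraries the split was 383 higher against 453 lower, or 45.8% higher, and the median over all genes was 0.02. The direction of the majority therefore depends on the scaling, and none of the differences below passed the adjusted threshold unless another comparison is named.

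The targeted gene gave no sign of loss at the RNA level. LRP6 (ENSG00000070018.8, chromosome 12, 12116025 to 12267012 in GRCh38) was at 21.12, 18.79 and 17.45 TPM in the LRP6KO libraries and at 10.93, 17.83 and 17.51 TPM in the Cas9 libraries. The groups overlapped, and the lowest value belonged to Cas9 replicate 1. The difference was 0.32 (95% interval -0.26 to 0.90, adjusted p 1), and 0.10 without Cas9 replicate 1. Sorting had been on protein, which was not measured here, and a small edit need not remove the transcript. The transcript therefore does not check the labels, and "LRP6KO" below means the libraries labelled so.

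Among the other Wnt receptors no gene stood apart. Of 25 receptors, co-receptors and receptor regulators, 23 were tested, 12 lay above 0, none had an unadjusted p under 0.05 and none had groups that did not overlap, against 3.33% and 9.67% of all genes. Their median difference was 0.00. LRP5, the close relative of LRP6 that can also serve as Wnt co-receptor, was at 15.51, 21.09 and 15.8 TPM in LRP6KO and at 20.02, 19.02 and 14.74 TPM in Cas9. Its difference was -0.04 (95% interval -0.58 to 0.50). The ligases RNF43 and ZNRF3 remove Frizzled from the cell surface. RNF43 was at 28.02, 14.21 and 20.52 TPM in LRP6KO and 26.57, 20.77 and 15.45 TPM in Cas9, and ZNRF3 at 13.21, 11.98 and 7.34 against 11.37, 11.95 and 10.06 TPM. The LRP6KO values spanned the Cas9 values for both genes. LGR5, a receptor for R-spondins and a marker of crypt stem cells, was at 8.35, 4.41 and 5.84 TPM in LRP6KO and 7.46, 6.69 and 8.01 TPM in Cas9 (difference -0.25, 95% interval -0.81 to 0.30). Its relative LGR4 was below 1 TPM in 5 of these 6 libraries and at 2.69 TPM in LRP6KO replicate 1.

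Secreted Wnt components included the most negative difference of the pathway, that of DKK1. Of 37 ligands, secretion factors and secreted inhibitors 21 were tested, 9 lay above 0, and the median difference was -0.04. For 3 of them every LRP6KO library lay below every Cas9 library, against 3.99% of all genes. DKK1, a secreted antagonist that binds LRP6 and is itself a Wnt target, was at 10.76, 9.23 and 13.36 TPM in LRP6KO and at 24.54, 30.51 and 27.08 TPM in Cas9. The means were 11.1 ± 2.09 and 27.4 ± 3.00 TPM (SD, n = 3 each), and the difference was -1.24 (SE 0.24, 95% interval -1.74 to -0.73, adjusted p 0.544). WLS, which carries Wnt proteins to the cell surface, was at 6.04, 7.38 and 8.17 TPM in LRP6KO and at 10.77, 13.87 and 13.39 TPM in Cas9 (difference -0.74, SE 0.22, adjusted p 1). PORCN, the enzyme that attaches the lipid needed for Wnt secretion, was at 55.59, 52.58 and 45.6 TPM against 63.67, 76.26 and 59.08 TPM (difference -0.36, adjusted p 1). DKK1 in LRP6KO also lay below the 3 Mock libraries of SW620 (39.8, 19.88 and 28.1 TPM). WLS in Mock, at 8.03, 8.63 and 8.01 TPM, lay near the LRP6KO values and below all 3 Cas9 libraries.

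Inside the cell, 28 of 31 listed components of the beta-catenin pathway were tested, 13 lay above 0 and the median difference was -0.02. CTNNB1, which encodes beta-catenin, was at 76.02, 79.01 and 95.98 TPM in LRP6KO and at 85.29, 83.73 and 83.8 TPM in Cas9 (difference -0.02, 95% interval -0.48 to 0.44). GSK3B, the kinase of the destruction complex, was at 20.2, 16.98 and 8.0 TPM against 15.12, 8.24 and 6.18 TPM, which overlapped. LEF1 was the only one of the 28 tested genes whose groups did not overlap, against 9.67% of all genes. It was at 1.6, 0.76 and 1.18 TPM in LRP6KO and at 2.57, 2.26 and 2.3 TPM in Cas9 (difference -0.65, 95% interval -1.35 to 0.06, adjusted p 1). These levels are low, and Mock libraries, at 0.3, 0.8 and 0.59 TPM, lay below all 3 Cas9 libraries and overlapped LRP6KO. The other factors of the family overlapped between groups, with TCF7L2 at 16.08, 20.56 and 18.88 against 22.11, 18.61 and 21.67 TPM and TCF7 at 4.96, 5.6 and 6.08 against 6.47, 5.39 and 5.28 TPM.

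Target genes lay on both sides of 0. All 28 listed Wnt targets were tested, 12 lay above 0, and the median difference was -0.03. The groups did not overlap for 3 higher and 4 lower targets, against the 5.68% and 3.99% of all genes given above. AXIN2, the feedback inhibitor most often used as a readout of the pathway, was at 34.7, 31.25 and 34.64 TPM in LRP6KO and at 44.18, 33.83 and 37.47 TPM in Cas9. The groups overlapped, and the difference was -0.19 (95% interval -0.58 to 0.21, adjusted p 1). NKD1, another feedback inhibitor, was at 131.7, 165.97 and 97.15 TPM against 111.7, 135.26 and 96.08 TPM. MYC, a growth-promoting transcription factor, was at 286.01, 202.32 and 294.35 TPM in LRP6KO and at 306.87, 326.13 and 359.61 TPM in Cas9, so that all 3 LRP6KO libraries lay lower. Its difference was -0.36 with a 95% interval of -1.03 to 0.31 (adjusted p 1), and -0.19 without LRP6KO replicate 2. MYC in Mock, at 251.57, 197.27 and 280.41 TPM, lay below all 3 Cas9 libraries and overlapped LRP6KO. AXIN2 in Mock, at 24.28, 26.12 and 29.72 TPM, lay below every LRP6KO and Cas9 library. NKD1 in Mock, at 76.05, 95.56 and 116.98 TPM, overlapped both groups.

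Among the targets, DKK1, MMP7 and SLC12A2 had an unadjusted p under 0.05. MMP7, a secreted protease of colon tumours, was at 13.45, 10.32 and 13.84 TPM in LRP6KO and at 20.01, 13.33 and 22.55 TPM in Cas9 (difference -0.52, SE 0.23, adjusted p 1). Its groups overlapped through Cas9 replicate 2. SLC12A2, a sodium, potassium and chloride cotransporter, was at 28.62, 33.34 and 29.89 TPM in LRP6KO and at 17.77, 15.58 and 17.98 TPM in Cas9 (difference 0.80, SE 0.20, adjusted p 0.842). It lay the opposite way from DKK1 and MMP7, and the 3 Mock libraries lay between the groups at 22.37, 22.3 and 20.87 TPM.

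The promoters of these 3 genes are shown because a TCF or LEF factor binds a short core sequence near many targets. The 250 bases before each start site are given 5′ to 3′ on the gene's strand from RefSeq (GRCh38.p14), at chr10:52314031-52314280 (plus strand) for DKK1, chr11:102530748-102530997 (minus strand) for MMP7 and chr5:128083516-128083765 (plus strand) for SLC12A2. Capitals mark CTTTGA or its reverse complement TCAAAG, searched on both strands. Other forms of the core were not searched, so the counts below cover these letters only.
DKK1: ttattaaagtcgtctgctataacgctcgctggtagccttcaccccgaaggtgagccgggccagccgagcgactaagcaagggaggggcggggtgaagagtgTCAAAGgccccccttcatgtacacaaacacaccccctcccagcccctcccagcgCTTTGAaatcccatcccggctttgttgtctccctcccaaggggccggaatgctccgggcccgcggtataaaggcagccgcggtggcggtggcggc
MMP7: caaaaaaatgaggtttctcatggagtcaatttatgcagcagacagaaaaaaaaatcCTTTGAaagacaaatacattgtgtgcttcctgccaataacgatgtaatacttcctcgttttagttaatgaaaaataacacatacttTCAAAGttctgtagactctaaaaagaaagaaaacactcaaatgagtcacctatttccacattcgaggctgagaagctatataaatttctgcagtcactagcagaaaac
SLC12A2: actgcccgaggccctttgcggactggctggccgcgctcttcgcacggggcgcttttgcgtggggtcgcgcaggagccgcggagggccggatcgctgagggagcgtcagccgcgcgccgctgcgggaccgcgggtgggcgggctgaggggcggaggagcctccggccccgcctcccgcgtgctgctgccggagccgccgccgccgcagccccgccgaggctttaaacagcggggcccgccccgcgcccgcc
DKK1 and MMP7 held 2 matches each, and SLC12A2 held 0 in this window, as did LEF1, which was lower in every LRP6KO library. A match was present in 3937 of 35116 promoters of this length (11.2%), and 2 or more in 343 (0.977%). Of the 28 Wnt targets 17 had a promoter sequence, and 3 of these held the motif (DKK1, MMP7 and SP5). A match in these letters is a description and not a binding site.

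**Figure D1:**
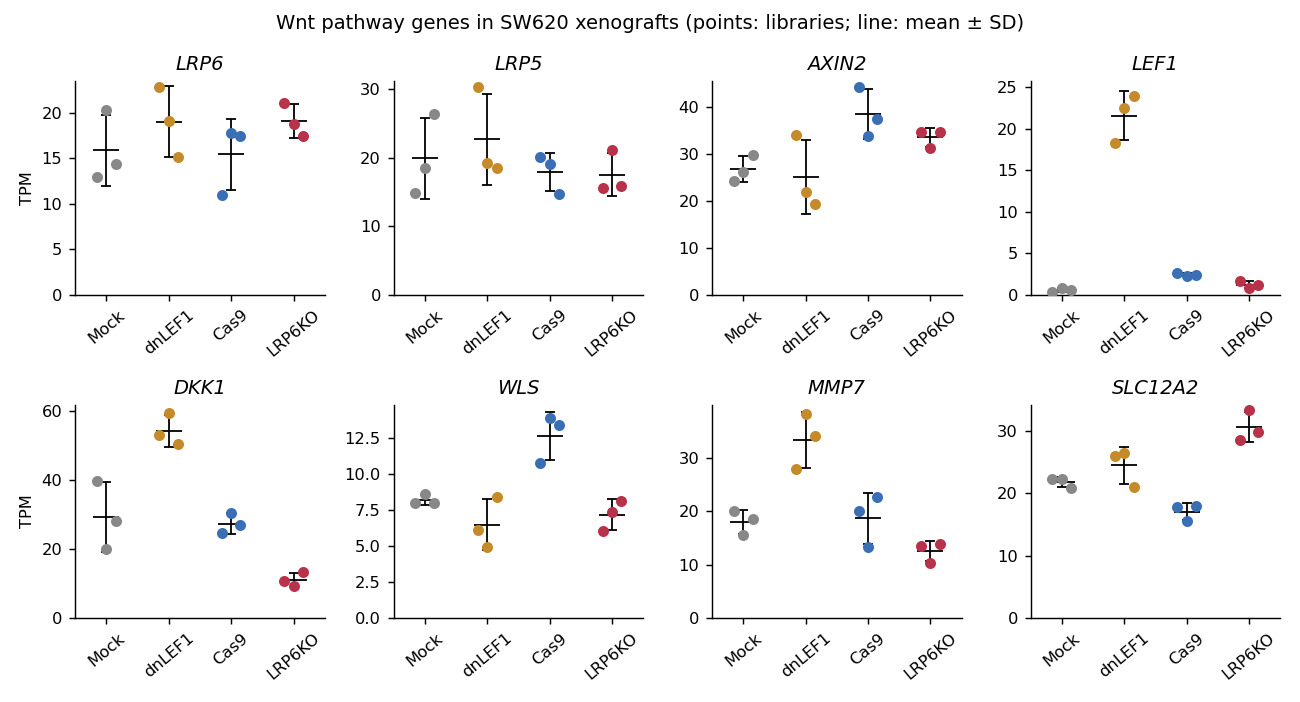
TPM of 8 Wnt pathway genes in each SW620 library by group (Mock, dnLEF1, Cas9, LRP6KO), with points for libraries and lines for the mean ± SD of 3 libraries. DKK1 and WLS lie lower and SLC12A2 higher in all 3 LRP6KO libraries than in all 3 Cas9 libraries, while LRP6, LRP5, AXIN2 and MMP7 overlap.

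Genes of planar polarity and other beta-catenin-independent Wnt routes numbered 23 tested of 25, with 15 above 0 and a median of 0.04. The planar polarity cadherin CELSR1 was at 2.16, 1.62 and 0.97 TPM in LRP6KO and at 2.63, 3.77 and 2.3 TPM in Cas9 (difference -0.60, SE 0.24, adjusted p 1). It was the only one of the 23 whose groups did not overlap, against 9.67% of all genes. Of 13 intestinal stem cell genes tested 8 lay above 0, with a median of 0.18, which was 0.08 without Cas9 replicate 1 and 0.10 without LRP6KO replicate 1. SMOC2, a secreted matricellular protein of crypt stem cells, was at 16.85, 15.3 and 14.93 TPM against 23.33, 21.34 and 22.93 TPM (difference -0.50, SE 0.22, adjusted p 1), below every Cas9 library. SOX9, a transcription factor of crypt cells and also a Wnt target, lay the other way at 13.19, 14.15 and 13.73 TPM against 12.3, 10.27 and 10.34 TPM (difference 0.30, SE 0.24, adjusted p 1), above every Cas9 library. CD24, a surface glycoprotein, was at 70.1, 47.79 and 61.85 TPM against 52.96, 41.76 and 49 TPM, which overlapped.

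Genes of intestinal differentiation went both ways, with 6 of 10 tested above 0. FABP1, the fatty acid binding protein of absorptive cells, was at 1.52, 2.51 and 2.72 TPM in LRP6KO and at 0.00, 0.52 and 0.34 TPM in Cas9 (difference 1.34, SE 0.38, adjusted p 1). CDX2, a transcription factor of intestinal identity, was at 2.5, 1.95 and 0.69 TPM against 3.0, 4.68 and 3.55 TPM (difference -0.86, SE 0.28, adjusted p 1). HNF4A, another transcription factor of this tissue, was at 31.61, 32.47 and 31.07 TPM against 49.31, 39.33 and 37.99 TPM. For each of these 3 genes the groups did not overlap. In Mock, FABP1 was at 0.56, 2.09 and 1.03 TPM and CDX2 at 1.3, 2.33 and 2.22 TPM. Both lay outside the Cas9 range, on the side of LRP6KO, and overlapped LRP6KO. HNF4A in Mock, at 21.18, 24.3 and 27.91 TPM, lay below every LRP6KO and Cas9 library.

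Most epithelial junction and keratin genes lay slightly below 0. Of 17 tested, 3 lay above 0, the median was -0.13, and 2, both lower, had an unadjusted p under 0.05, against 1.32% of all genes. CLDN3, a tight junction claudin, was at 6.53, 8.06 and 7.33 TPM in LRP6KO and at 16.16, 9.88 and 14.82 TPM in Cas9 (difference -0.79, SE 0.23, adjusted p 1). ESRP1, a splicing factor of epithelial cells, was at 2.2, 3.35 and 2.63 TPM against 5.44, 4.91 and 4.46 TPM (difference -0.68, SE 0.23, adjusted p 1). In both genes all LRP6KO libraries lay below all Cas9 libraries. CLDN3 in Mock, at 6.09, 7.61 and 7.94 TPM, lay at the LRP6KO level, whereas ESRP1 in Mock, at 5.13, 4.44 and 6.12 TPM, lay at the Cas9 level.

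Of 13 mesenchymal genes tested 9 lay above 0 (median 0.10), and the median was -0.09 without LRP6KO replicate 1. The matrix protein tenascin, TNC, was at 97.03, 104.58 and 111.25 TPM in LRP6KO and at 88.34, 65.45 and 77.32 TPM in Cas9 (difference 0.44, SE 0.19, adjusted p 1). The transcription factor SNAI2 was at 1.58, 2.4 and 3.1 TPM against 0.84, 0.67 and 1.53 TPM (difference 0.74, SE 0.35, adjusted p 1). Fibronectin, FN1, lay the other way at 7.54, 4.79 and 7.8 TPM against 12.38, 8.76 and 10.25 TPM. Groups did not overlap for these 3 genes.

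Invasion and matrix genes had 8 of 20 above 0 (median -0.09, and -0.02 without Cas9 replicate 1), and all 4 with an unadjusted p under 0.05 were lower, against 1.32% of all genes. MMP7 is given above. LAMB3 and LAMA3 encode chains of the laminin that anchors epithelium to its basement membrane. LAMB3 was at 19.35, 13.63 and 15.58 TPM in LRP6KO and at 19.67, 25.34 and 23.5 TPM in Cas9 (difference -0.48, SE 0.17, adjusted p 1). LAMA3 was at 3.17, 0.86 and 1.92 TPM against 3.43, 3.95 and 4.22 TPM (difference -0.78, SE 0.31, adjusted p 1). Both laminin chains were lower in every LRP6KO library.

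Growth and stress programmes lay close to the median of all genes. Glycolysis (22 genes tested, median -0.01), nuclear oxidative phosphorylation genes (25 genes, 0.02), proliferation (23 genes, -0.00) and p53 targets (19 genes, 0.00) were all within 0.1 of 0. The glucose transporter SLC2A3, which shares sequence with SLC2A14, was at 105.77, 91.59 and 132.95 TPM in LRP6KO and at 78.92, 107.15 and 73.42 TPM in Cas9, which overlapped. TYMS, which makes thymidylate for DNA synthesis, was at 186.18, 152.63 and 182.65 TPM against 139.11, 145.94 and 141.49 TPM (difference 0.28, SE 0.12, adjusted p 1). CDKN1A, a cell cycle inhibitor and p53 target, was at 11.46, 13.63 and 12.11 TPM against 8.26, 10.29 and 6.24 TPM (difference 0.55, SE 0.20, adjusted p 1). Both genes were higher in every LRP6KO library than in every Cas9 library.

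The heat shock co-chaperone DNAJB1 was at 213.73, 201.43 and 271.9 TPM in LRP6KO and at 122.28, 152.67 and 143.36 TPM in Cas9 (difference 0.71, SE 0.20, adjusted p 1). Its partner chaperone HSPA1A, whose reads can be split with its near-identical copy HSPA1B, was at 202.23, 210.04 and 235.85 TPM against 130.33, 176.56 and 140.64 TPM. Neither gene's groups overlapped. DNAJB1 in Mock, at 180.06, 193.72 and 208.24 TPM, also lay above all Cas9 libraries. Of the 19 immediate-early and stress genes 10 lay above 0, with a median of 0.03.

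Sterol synthesis and lipoprotein uptake genes had 10 of 21 above 0 and a median of -0.06. NSDHL and MSMO1, successive enzymes of cholesterol synthesis, were the ones with an unadjusted p under 0.05. NSDHL was at 41.61, 41.15 and 46.46 TPM in LRP6KO and at 26.98, 36.0 and 29.64 TPM in Cas9 (difference 0.48, SE 0.17, adjusted p 1), and MSMO1 at 27.01, 23.66 and 31.64 against 15.07, 18.52 and 22.25 TPM (difference 0.54, SE 0.24, adjusted p 1). NSDHL lies in the chromosome X window described below.

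Other signalling lists held few genes apart from the rest. YAP and TEAD targets had 14 of 15 above 0 with a median of 0.08, near the 0.07 of all genes, and YAP1 itself was at 11.59, 13.06 and 11.33 TPM against 8.69, 10.47 and 9.68 TPM. TGF-beta and BMP genes had a median of 0.15 (18 tested, and 0.06 without LRP6KO replicate 1), with the BMP target ID2 at 92.33, 103.62 and 117.98 TPM against 88.11, 90.25 and 81.12 TPM. YAP1 and ID2 were higher in every LRP6KO library. Notch genes had 6 of 16 above 0 (median -0.10). The Notch ligand JAG2 was at 7.89, 10.12 and 8.57 TPM against 4.56, 7.04 and 5.6 TPM (difference 0.56, SE 0.26, adjusted p 1), and the receptor NOTCH2 at 2.51, 1.7 and 2.97 against 4.12, 3.43 and 4.87 TPM. These lay in opposite directions, each without overlap, while the receptor NOTCH4 lay on the side of JAG2 at 7.62, 6.15 and 4.84 against 4.25, 5.08 and 4.03 TPM, with overlap (difference 0.39).

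Hypoxia genes (15 tested, median 0.09), interferon genes (17, 0.10), antigen presentation genes (17, 0.01) and unfolded protein response genes (16, 0.01) had no member with an unadjusted p under 0.05. The hypoxia and stress gene DDIT4 was at 120.16, 121.43 and 154.88 TPM in LRP6KO and at 72.03, 127.06 and 85.13 TPM in Cas9. The interferon-induced gene IFI27 was at 7.72, 3.43 and 2.51 TPM against 0.87, 0.9 and 3.63 TPM. HLA-B, a class I antigen-presenting molecule, was at 79.51, 68.39 and 42.53 TPM against 63.86, 76.16 and 86.4 TPM. The groups overlapped for all 3 genes.

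Transcripts of the mitochondrial genome lay lower in LRP6KO than in Cas9, at about the level of Mock. All 13 mitochondrial coding genes lay below 0, with a median of -0.28, and for 6 of them every LRP6KO library lay below every Cas9 library, against 3.99% of all genes. MT-CYB, a subunit of respiratory complex III, was at 2343.64, 2439.89 and 2666.37 TPM in LRP6KO and at 3611.05, 3331.09 and 3140.35 TPM in Cas9 (difference -0.44, SE 0.13, adjusted p 1). MT-CO3 was at 8853.42, 8392.58 and 8672.7 TPM against 10950.3, 9887.55 and 10745.4 TPM (difference -0.28, SE 0.11, adjusted p 1). MT-ND4L was at 6839.39, 6102.92 and 5351.07 TPM against 9721.44, 8444.87 and 8671.47 TPM (difference -0.56, SE 0.23, adjusted p 1). The 13 genes together made up 3.93% to 4.20% of human TPM in LRP6KO and 4.73% to 5.71% in Cas9, without overlap (exact two-sided permutation test, p = 0.1, the smallest that 3 against 3 libraries allow). The share was 3.75% to 4.03% in Mock and 4.87% to 6.06% in dnLEF1, so LRP6KO lay near its range in Mock and Cas9 near that in dnLEF1. These genes are cut from long shared precursor transcripts and are not independent of each other. Their nuclear partners in oxidative phosphorylation had a median of 0.02, as given above.

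Stroma genes, which a carcinoma line should hardly express, had the highest median of all lists. Of 29 listed 18 were tested, 13 lay above 0 and the median was 0.27, which was -0.03 without LRP6KO replicate 1 and 0.15 without Cas9 replicate 1. For 1 of the 18, PECAM1, every LRP6KO library lay above every Cas9 library, against 5.68% of all genes. For 2, the macrophage receptor gene CSF1R (difference -0.44) and the muscle filament gene DES (-0.21), every LRP6KO library lay below, against 3.99%. The endothelial gene PECAM1 was at 4.38, 3.97 and 6.22 TPM in LRP6KO and at 1.77, 1.0 and 2.21 TPM in Cas9 (difference 1.15, SE 0.34, adjusted p 1). The 5 endothelial markers summed to 5.67 to 8.46 TPM in LRP6KO and 1.92 to 3.03 TPM in Cas9, without overlap, and to 2.87 to 4.34 TPM in Mock and dnLEF1 of SW620. PECAM1 exceeded the 4 other endothelial markers together in each of the 6 libraries. VWF was at 1.72, 1.23 and 0.14 TPM in LRP6KO and at 0.16, 0.56 and 0.28 TPM in Cas9, which overlapped, and CDH5, KDR and TEK were too low to be tested. Sums overlapped for fibroblast markers (11.9 to 17.3 against 7.97 to 14 TPM), leukocyte markers (2.67 to 11.7 against 3.54 to 7.50 TPM), smooth muscle markers (33.5 to 70.5 against 32.3 to 47.2 TPM) and nerve and glia markers (1.79 to 8.24 against 1.82 to 3.48 TPM). No marker was at 0 in all 6 libraries. Host cells in these samples are of mouse, and the part of mouse reads in these human values was not tested.

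**Figure D2:**
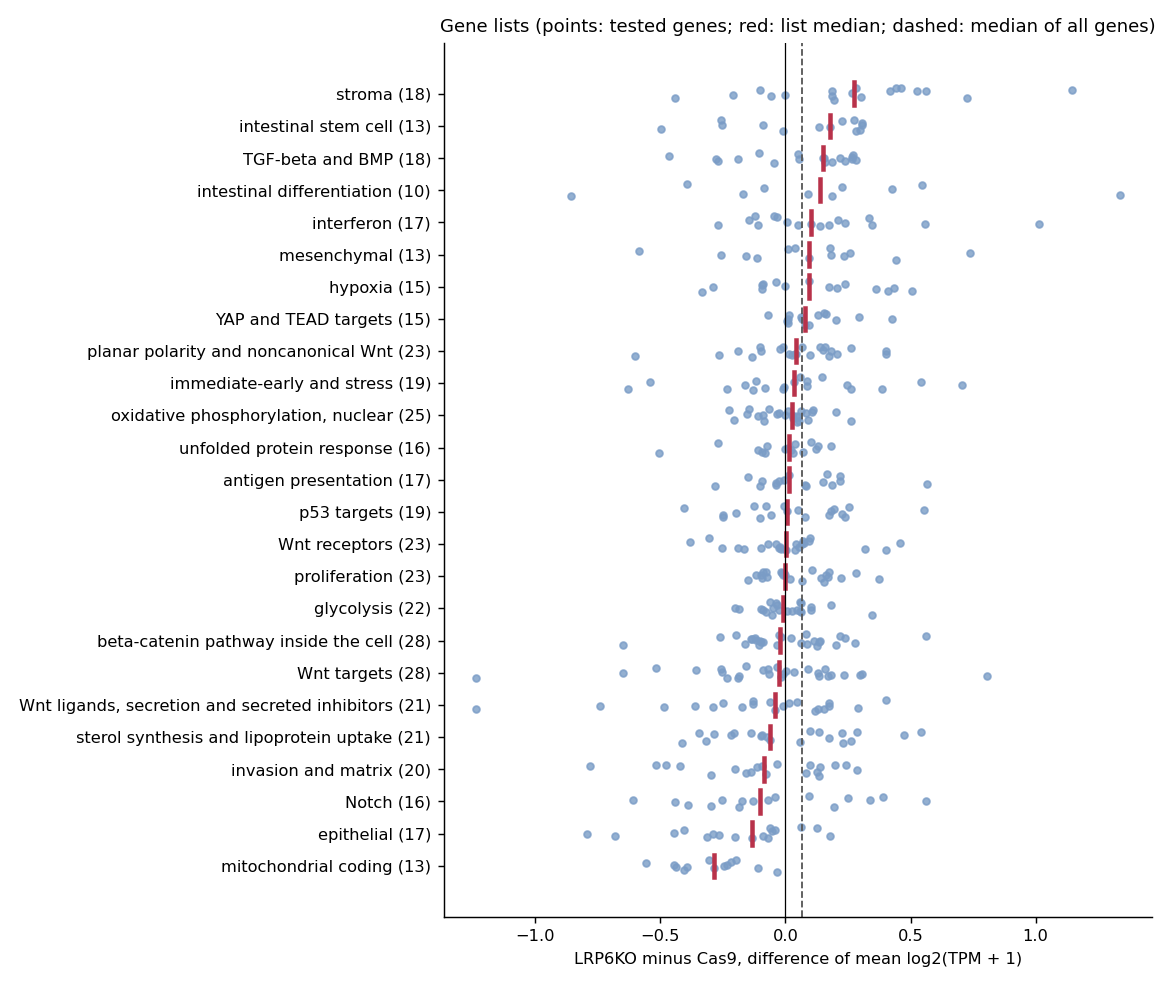
LRP6KO minus Cas9 difference of mean log2(TPM + 1) for each tested gene of 25 lists (points), with the list median in red and the median of all genes, 0.07, as a dashed line. List medians run from -0.28 for the mitochondrial coding genes to 0.27 for the stroma genes, and most lists straddle 0.

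Among the genes named here for a small p, DKK1 was the only Wnt gene, which depends on the cut at 10 each way. They are the 10 protein-coding genes each way with the smallest p among those of at least 5 TPM in the higher group whose libraries did not overlap. EVA1A (ENSG00000115363.13, chromosome 2, 75469302 to 75569722), a gene of autophagy and cell death, was at 18.96, 14.21 and 16.69 TPM in LRP6KO and at 7.37, 6.63 and 9.37 TPM in Cas9 (difference 1.01, SE 0.20, adjusted p 0.544). ZNF346, a zinc finger protein that binds double-stranded RNA, was at 30.8, 21.78 and 27.55 TPM against 12.31, 12.85 and 14.49 TPM (difference 0.95, SE 0.20, adjusted p 0.685). Its neighbour on chromosome 5, the histone methyltransferase NSD1, was at 43.92, 38.86 and 41.36 TPM against 26.54, 27.97 and 26.27 TPM (difference 0.60, SE 0.14, adjusted p 0.685). For EVA1A and NSD1 the Mock libraries lay between the groups, at 37.44, 36.41 and 35.32 TPM for NSD1, and for ZNF346 they lay within the LRP6KO range.

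Of the other higher genes, 4 lie at the end of chromosome X, in a window that holds 47 of the 10169 genes of all windows described below. NAA10, the catalytic subunit of an N-terminal acetyltransferase, was at 280.21, 311.59 and 281.26 TPM against 187.08, 224.12 and 188.93 TPM (difference 0.54), and HMGB3, a chromatin protein, at 121.65, 115.22 and 150.85 against 65.62, 84.83 and 72.16 TPM (0.79). FAM50A was at 68.31, 70.91 and 58.32 TPM against 37.48, 40.53 and 37.3 TPM (0.76), and the mitochondrial outer membrane gene FUNDC2 at 160.28, 174.48 and 169.24 against 111.71, 123.74 and 120.29 TPM (0.50). Adjusted p was 0.685 for each. The phospholipase gene PLAAT3 (0.55), the phosphatase subunit gene PPP4R3A (0.66) and TGFBR3L (1.45, at 5.68, 7.91 and 2.44 TPM against 1.39, 1.27 and 0.86 TPM) complete the higher genes, with adjusted p of 0.685 to 0.842.

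At the other end, DNAJC15 (chromosome 13, 43023203 to 43114224), a mitochondrial co-chaperone, was at 11.28, 8.21 and 12 TPM in LRP6KO and at 20.8, 19.04 and 23.53 TPM in Cas9 (difference -0.96, SE 0.19, adjusted p 0.544). FXYD3, a regulator of the sodium pump, was at 4.44, 3.57 and 3.95 TPM against 9.87, 9.07 and 9.47 TPM (difference -1.07, SE 0.22, adjusted p 0.544). CBS, the enzyme that makes cystathionine from homocysteine, was at 7.31, 10.23 and 7.1 TPM against 15.55, 17.06 and 15.07 TPM (difference -0.89, adjusted p 0.685). KRT23, an epithelial keratin, was at 44.53, 45.85 and 49.35 TPM against 82.03, 76.7 and 87.15 TPM (difference -0.80, adjusted p 0.685). The gap between the groups exceeded the spread within either group for all 4 genes. Their choice by small p and no overlap favours such a gap, so it is not added support.

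RPS6, a protein of the small ribosomal subunit, was the most abundant of these genes at 1306.52, 1544.65 and 1637.07 TPM against 1984.78, 1966.37 and 2201.47 TPM (difference -0.46, SE 0.10, adjusted p 0.685). RRAGA, a GTPase that signals amino acid supply to mTOR, was at 53.11, 47.54 and 60.62 TPM against 69.88, 80.33 and 80.06 TPM (difference -0.51, adjusted p 0.961). Both lie near 19 Mb on chromosome 9, not far from CDKN2A, the cell cycle inhibitor locus, which was at 346.6, 357.97 and 317.45 TPM against 480.22, 514.84 and 542.3 TPM (difference -0.59, adjusted p 1). FAM120B (-0.75) and FNDC3A (-0.53) were the remaining ones. Over all 20 genes, the LRP6KO mean was nearer the Mock mean for 10 and the Cas9 mean was nearer for the other 10. The Wnt target SLC12A2 is not among them, because 10 higher genes had a smaller p. Its unadjusted p (limma, 0.00113) was smaller than those of the lower genes FAM120B, RRAGA, CDKN2A and FNDC3A.

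**Figure D3:**
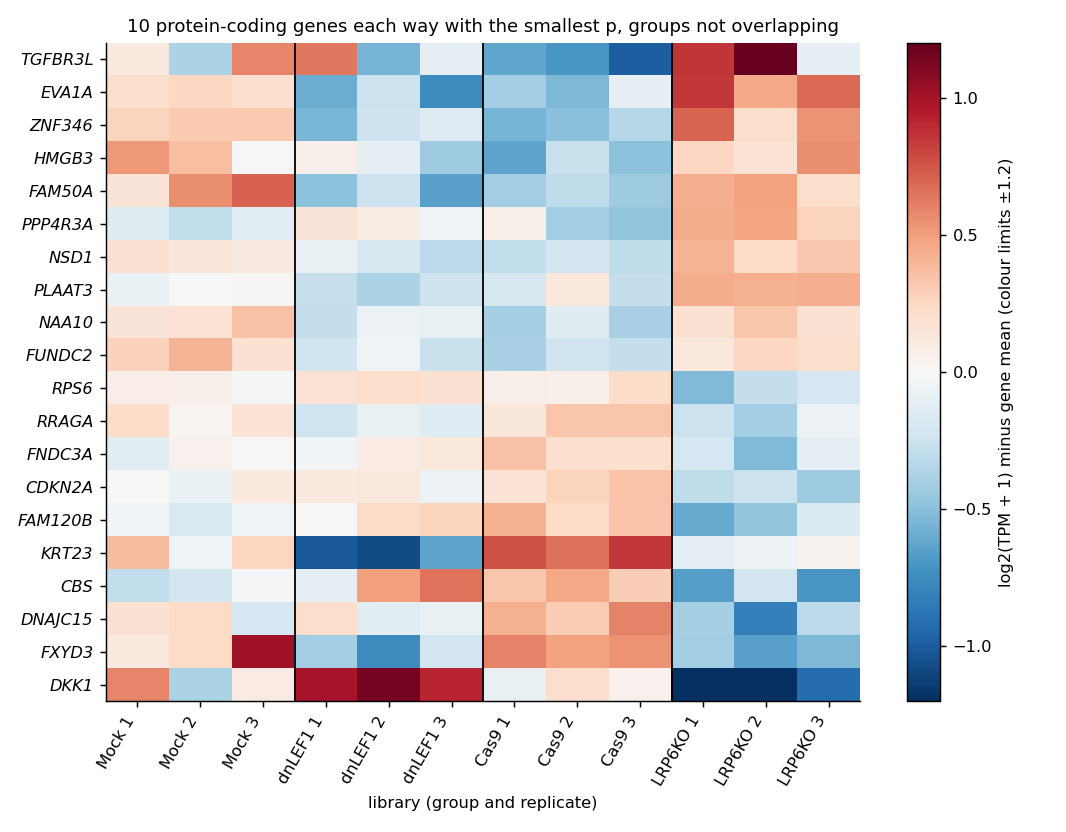
log2(TPM + 1) minus the mean of each gene over the 12 SW620 libraries (colour, limits ±1.2) for 10 protein-coding genes higher and 10 lower in LRP6KO, by library. The 3 Mock columns resemble LRP6KO for FAM50A and NAA10 and resemble Cas9 for RPS6, and dnLEF1 stands highest for DKK1.

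A pair of short non-coding RNAs had the smallest p of all genes. A Y_RNA locus (ENSG00000200502.1, chromosome 9, 37160137 to 37160237) was at 29.05, 23.02 and 17.17 TPM in LRP6KO and listed at 0 in all Cas9 libraries (adjusted p 0.0805). The small nucleolar RNA SNORA79B was listed at 0 in all LRP6KO libraries and was at 5.28, 7.51 and 5.05 TPM in Cas9 (adjusted p 0.0805). Both were listed at 0 in all Mock libraries, so Mock lay with Cas9 for the Y_RNA locus and with LRP6KO for SNORA79B. Each of these RNAs met the filter of 1 TPM in 3 libraries only through the group where it was high, so its p is not support. Among pseudogenes, whose p lay behind that of DKK1, TMEM167AP2 was at 7.22, 5.47 and 6.46 TPM in LRP6KO and listed at 0 in Cas9. RPL23P4, a ribosomal pseudogene, was at 3.15, 2.3 and 1.55 TPM against 7.15, 4.81 and 7.46 TPM. In Mock, TMEM167AP2 was at 0, 6.28 and 0 TPM and RPL23P4 at 0.86, 0.75 and 1.55 TPM. Y RNAs and these pseudogenes have near-identical copies elsewhere in the genome, among which reads can be split, so their values are uncertain.

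CALB1, the calcium buffer calbindin, falls outside the naming rule and was chosen after its values were seen. It was at 30.23, 27.04 and 39.05 TPM in LRP6KO and at 99.72, 89.38 and 103.22 TPM in Cas9, means of 32.1 ± 6.22 and 97.4 ± 7.20 TPM (SD, n = 3 each). The difference was -1.59 (SE 0.59, adjusted p 1). In a fit of the 12 SW620 libraries alone its adjusted p was 0.00617, the one gene called there, and over the other alternatives it ranged up to 1. SW480 libraries, which that fit leaves out, ranged from 0 to 12.2 TPM for this gene. Mock libraries were at 71.61, 62.17 and 64.03 TPM and dnLEF1 libraries at 24.6, 25.28 and 31.44 TPM, so LRP6KO lay at the dnLEF1 level and below both controls.

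In several chromosome regions neighbouring genes lay to the same side. Windows of 10 Mb were used where they held 10 or more genes averaging 5 TPM or more over the 6 libraries. In these 276 windows the median difference per window had a median of 0.06, and 5% of windows lay under -0.14 and 5% above 0.16. The last window of chromosome X, from 150 Mb, stood highest with a median of 0.44. All 47 genes there lay above 0, from 0.02 for TMEM187 to 1.05 for ATP6AP1-DT. For 31 of the 47 all LRP6KO libraries lay above all Cas9 libraries, against 6.97% of genes over all windows. The median ratio of mean TPM was 1.40.

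The most abundant genes of the chromosome X window are RPL10, SSR4 and FLNA. RPL10, a ribosomal protein gene, was at 3421.71, 3665.84 and 3521.91 TPM in LRP6KO and at 2666.26, 2659.25 and 2838.9 TPM in Cas9 (difference 0.38, SE 0.18). SSR4, a subunit of the translocon-associated complex, was at 581.76, 721.68 and 605.5 TPM against 482.07, 464.32 and 487.53 TPM (0.41, SE 0.13). FLNA, the actin crosslinker filamin A, was at 392.96, 383.07 and 257.27 TPM against 161.67, 231.44 and 157.33 TPM (0.90, SE 0.28). None overlapped, and none was called (adjusted p 1). RPL10, like RPS6 and TPT1, has many processed pseudogenes that can take some of its reads. The Mock libraries lay with LRP6KO: relative to the mean of the 12 SW620 libraries, the median of the 47 genes was 0.21 to 0.32 in LRP6KO, 0.09 to 0.24 in Mock, -0.37 to -0.13 in Cas9 and -0.36 to -0.16 in dnLEF1. The dnLEF1 minus Mock difference had a median of -0.47 over the same genes.

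The lowest windows lie on chromosomes 9 and 13. The chromosome 9 window from 20 Mb had a median of -0.52 over 10 genes, 8 of them below 0. Of the 10, 6 were lower without overlap, against 5.23% of genes over all windows. This window holds CDKN2A, given above, and its neighbours MTAP and CDKN2B. MTAP, an enzyme of methionine salvage, was at 46.94, 37.35 and 53.79 TPM against 64.24, 67.13 and 68.29 TPM (difference -0.54, SE 0.18). CDKN2B, a cell cycle inhibitor, was at 22.4, 28.7 and 35.65 TPM against 52.82, 50.36 and 55.29 TPM (-0.87, SE 0.34). All 3 neighbours were lower in every LRP6KO library, and adjusted p was 1. In Mock, CDKN2B was at 32.96, 29.78 and 37.15 TPM, near LRP6KO and below every Cas9 library. CDKN2A in Mock, at 428.08, 405.63 and 462.96 TPM, lay between the groups. MTAP in Mock, at 77.66, 56.86 and 71.17 TPM, lay above every LRP6KO library.

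The first window of chromosome 9 had a median of -0.32 over 17 genes, with ZNG1A, a member of a family of near-identical copies, at 74.07, 67.35 and 75.48 TPM against 96.08, 88.63 and 93.16 TPM and PUM3 at 26.67, 30.44 and 40.06 against 38.91, 41.09 and 41.03 TPM. The chromosome 13 window from 40 Mb had a median of -0.31 over 39 genes, 32 of them below 0, and 17 were lower without overlap, against 5.23% of genes over all windows. There the translationally controlled gene TPT1 was at 448.86, 494.94 and 549.33 TPM against 721.9, 564.25 and 660.84 TPM, TSC22D1 at 171.7, 159.11 and 186.75 against 195.86, 220.29 and 224.55 TPM, and ITM2B at 114.5, 84.9 and 101.03 against 144.7, 130.71 and 129.01 TPM. All 3 were lower in every LRP6KO library. In Mock, TPT1 (548.05, 451.61 and 497.05 TPM) and ITM2B (101.29, 61.22 and 94.71 TPM) overlapped LRP6KO and lay below every Cas9 library. TSC22D1 in Mock, at 207, 184.08 and 185.65 TPM, overlapped both groups. The chromosome 13 window from 20 Mb, which is not among the 3 lowest, had a median of -0.30 and all 23 of its genes below 0. Of these, 10 were without overlap, against 5.23% lower without overlap over all windows.

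The remaining high windows moved more with single libraries. The chromosome 16 window from 40 Mb had a median of 0.23 over 12 genes but 0 genes without overlap, and the median was 0.09 without LRP6KO replicate 1. Its genes VPS35, at 86.95, 74.61 and 83.03 TPM against 60.52, 75.93 and 68.64 TPM, and ORC6, at 105.94, 68.58 and 77.16 against 57.95, 82.23 and 65.13 TPM, both overlapped. The chromosome 2 window from 60 Mb had a median of 0.22 over 42 genes, which was 0.07 without Cas9 replicate 1, 0.11 without LRP6KO replicate 1 and 0.10 without LRP6KO replicate 3. DNA copy number was not measured here, and its part in these regional differences was not tested.

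**Figure D4:**
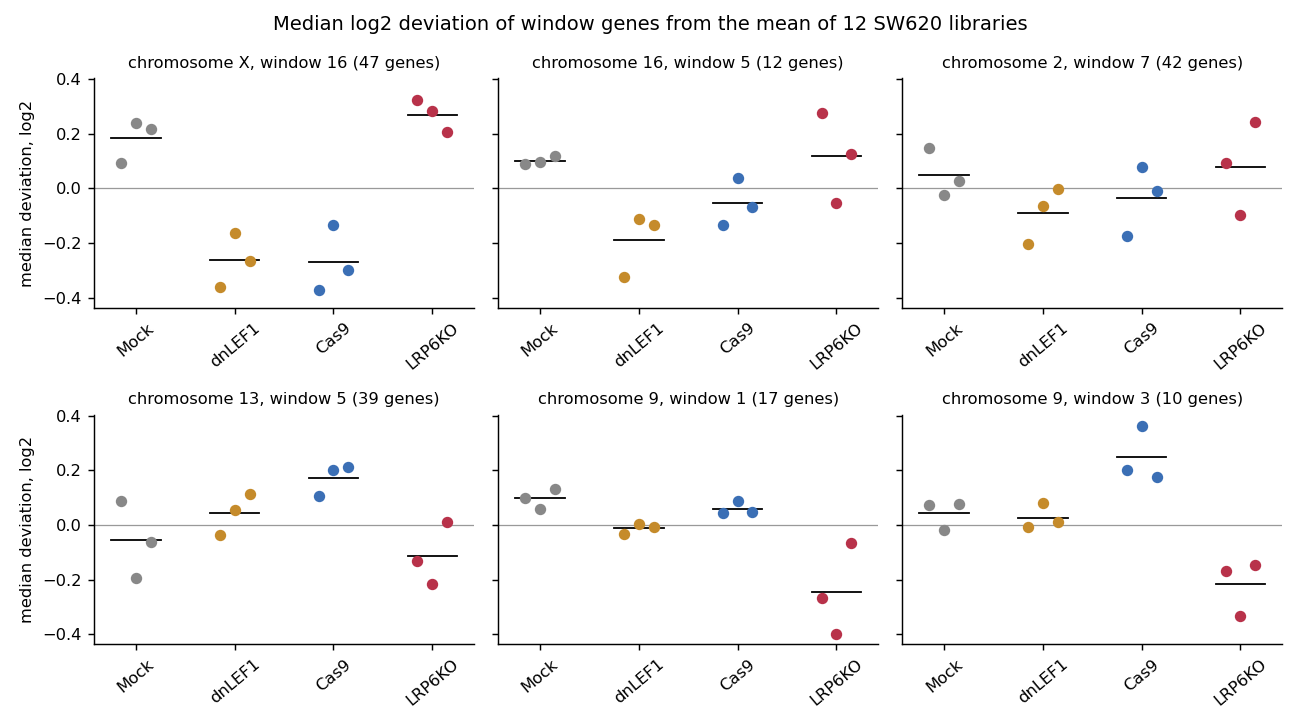
Median over the genes of a 10 Mb window of the deviation of log2(TPM + 1) from the mean of the 12 SW620 libraries, per library (points) with group means (lines), for the 3 highest and 3 lowest windows, numbered from the chromosome start. On chromosome X (47 genes) LRP6KO and Mock lie above 0 and Cas9 and dnLEF1 below, whereas in the chromosome 9 windows LRP6KO alone lies lowest.

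LRP6KO was aimed at the receptor and dnLEF1 at the transcription factor of the same pathway, and their libraries and controls do not overlap, so their changes in SW620 can be tested against each other. In the same fit dnLEF1 against Mock called 38 of 22981 genes (0.165%), 13 higher (0.0566%) and 25 lower. Over the 13 that rose with dnLEF1 (median 1.76), the LRP6KO difference had a median of 0.16 and lay above 0 for 9. Over the 25 that fell with dnLEF1 (median -1.37), it had a median of 0.13 and lay below 0 for 11. In all, 20 of the 38 had the same sign. An unadjusted p under 0.05 in LRP6KO against Cas9 was found for 13 of the 38, against 3.33% of all genes, 6 with the sign of the dnLEF1 change and 7 with the opposite sign. Both comparisons take a gene's spread from the same fit.

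The LRP6KO change differed from the dnLEF1 change for 16 genes (0.0696%) at an adjusted p under 0.05, with the LRP6KO change higher for 10 (0.0435%) and lower for 6 (0.0261%). Over all genes the median of this difference of changes was 0.19, and 0.02 after median-ratio scaling, which called 4 higher and 7 lower. LEF1 rose with dnLEF1, from 0.3, 0.8 and 0.59 TPM in Mock to 18.25, 22.51 and 23.98 TPM, which can include the introduced form, while all 3 LRP6KO libraries lay below Cas9 (difference of changes -4.50, SE 0.47, adjusted p 0.00111). MLIP was at 0.78, 0.6 and 0.32 TPM in LRP6KO and at 1.71, 4.76 and 2.3 TPM in Cas9, but rose from 4.76, 1.99 and 1.58 TPM in Mock to 19.61, 17.31 and 14.62 TPM with dnLEF1 (-3.61, SE 0.44, adjusted p 0.00519). The DNA repair gene MGMT, at most 0.26 TPM in the Cas9 and LRP6KO libraries, and LHFPL6, at 1.41, 1.02 and 0.75 TPM in LRP6KO, rose with dnLEF1 to 7.85, 6.55 and 6.82 TPM and to 9.95, 12.67 and 12.19 TPM. DKK1 was among the 6: it stood at 53.07, 59.24 and 50.27 TPM with dnLEF1, above every Mock library, and below every Cas9 library in LRP6KO (-2.15, SE 0.34, adjusted p 0.0238).

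In the other direction, CLU, the secreted chaperone clusterin, was at 42.48, 45.3 and 41.21 TPM in LRP6KO and at 23.36, 28.25 and 19.07 TPM in Cas9. With dnLEF1 it fell from 37.35, 46.25 and 35.05 TPM in Mock to 12.34, 21.04 and 15.19 TPM (difference of changes 2.12, SE 0.31, adjusted p 0.0154). TAFAZZIN, which remodels the mitochondrial lipid cardiolipin, was at 28.59, 27.36 and 20.87 TPM in LRP6KO against 12.62, 14.57 and 13.07 TPM in Cas9, and fell with dnLEF1 from 26.01, 28.55 and 31 TPM to 8.01, 13.47 and 8.76 TPM (2.32, SE 0.38, adjusted p 0.0262). BCL2L15, a member of the BCL2 family of cell death regulators, was at 39.86, 24.67 and 25.7 TPM in LRP6KO against 23.11, 21.31 and 21.82 TPM in Cas9, and fell with dnLEF1 to 7.33, 4.6 and 5.86 TPM (2.05, SE 0.33, adjusted p 0.0262). EVA1A, described above, was at 6.35, 8.25 and 5.58 TPM with dnLEF1 against 11.83, 12.14 and 11.63 TPM in Mock (1.76, SE 0.28, adjusted p 0.0262). For CLU and TAFAZZIN the Mock libraries stood at the LRP6KO level and the Cas9 libraries nearer the dnLEF1 level. TAFAZZIN, FAM50A, FUNDC2 and BCAP31, called among the 10, all lie in the chromosome X window described above. That window holds 47 of the 10169 genes of all windows. The 12 SW620 libraries fitted alone called 42 genes and array weights called 209, while leaving out Cas9 replicate 1 or LRP6KO replicate 2 left 3.

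**Figure D5:**
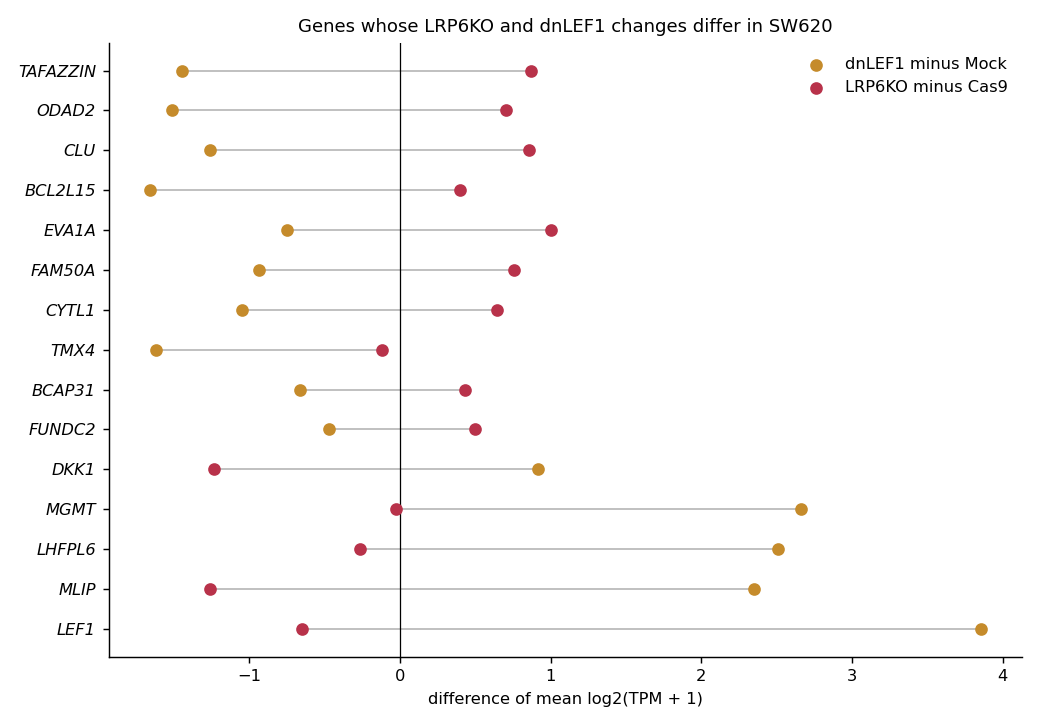
LRP6KO minus Cas9 (red) and dnLEF1 minus Mock (yellow), as differences of mean log2(TPM + 1), for the 15 of 16 genes called for a difference between these changes that had no group listed at 0. LEF1, MLIP, LHFPL6 and MGMT have high dnLEF1 values with LRP6KO values at or below 0, and TAFAZZIN, CLU and EVA1A lie on opposite sides of 0.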

How the data were processed

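RNA from frozen caecum was made into Smart-seq2 libraries, per the labels' protocols, and the authors deposited TPM per human gene. Per the submitters' processing notes the tools were Trimmomatic 0.35, Bowtie 1.2 and RSEM 1.2.31, and the build hg38. The mouse table was not used here. Of 58381 identifiers, 45 pseudoautosomal copies on chromosome Y, all at 0, were left out, and 58216 of the remaining 58336 were found in GENCODE 29 (GRCh38). No counts or depth are given, so no counting intervals were made.

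A gene was tested when 3 or more of the 18 xenograft libraries reached 1 TPM (22981 genes). The test was limma 3.58.1 (R 4.3.3), with trend, on log2(TPM + 1) and a mean for each of the 6 groups, adjusted by Benjamini-Hochberg over all genes. The script was tested on simulated data. Other values used Python 3.11.15, pandas 2.3.3 and scipy 1.17.1. The members and gene lists (25 lists, 470 of 542 entries tested) were chosen with earlier results of these data known. Names printed were taken from 12 Wnt genes, 10 coding and 2 other genes each way without overlap and with 5 TPM or more in the higher group, ordered by p, from each list the 3 genes of smallest p, 4 genes each way for the difference of changes, and the 3 most abundant genes of the 3 highest and 3 lowest windows. PORCN, BCAP31, CALB1, TMEM187, ATP6AP1-DT and the low window beyond the 3 lowest fall outside this rule and were chosen after their values were seen. Alternatives were a pseudocount of 0.1, no filter, median-ratio scaling, 12 or 6 libraries in the fit, array weights, a replicate block, and leaving out single libraries.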

Additional observations from a re-analysis of the deposited data

Results flagged for a closer look

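For the 8 genes named for the difference of changes, the change in LRP6KO against Cas9 differed from that in dnLEF1 against Mock. The test was of the difference itself (limma, adjusted p under 0.05 over 22981 genes). The LRP6KO change was lower for LEF1 (-4.50), MLIP (-3.61), LHFPL6 (-2.77) and MGMT (-2.69), on the log2 scale. It was higher for TAFAZZIN (2.32), CLU (2.12), BCL2L15 (2.05) and EVA1A (1.76). DKK1 (-2.15), SNORA79B (-3.51), FAM50A (1.70) and FUNDC2 (0.97), named by other rules, passed the same test. SNORA79B met the filter of 1 TPM in 3 libraries only through the Cas9 libraries, so its call is not support. LEF1 and MLIP were called under all 18 alternatives, MGMT under 17, CLU under 13, LHFPL6 under 12, EVA1A under 7, and TAFAZZIN and BCL2L15 under 5 each. The LEF1 value with dnLEF1 can include the introduced form, so its calls do not measure the cells' own LEF1 alone. Of the genes named by other rules, FAM50A was called under 11, DKK1 under 8, SNORA79B under 6 and FUNDC2 under 5. None of the 8 was called in LRP6KO against Cas9 itself.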

How the results depend on the processing

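The count for LRP6KO against Cas9 was 0, and it was 0 with a pseudocount of 0.1, no filter, median-ratio scaling, and each library left out in turn (0 to 0). It was 1 with array weights and 1 with only the 6 libraries (the Y_RNA locus, adjusted p 0.0463 and 0.0498), and 1 with the 12 SW620 libraries (CALB1). The Y_RNA locus met the filter only through the LRP6KO libraries. The number of genes called for the difference from the dnLEF1 change was 16, and 209 with array weights, 42 with the 12 SW620 libraries, 12 with no filter, 11 with median-ratio scaling and 11 with a pseudocount of 0.1. Leaving out 1 library gave 3 to 13, with 3 without Cas9 replicate 1 or LRP6KO replicate 2, 4 without LRP6KO replicate 1 or dnLEF1 replicate 3, 5 without Mock replicate 2, 6 without Cas9 replicate 2 or Mock replicate 3, 8 without LRP6KO replicate 3 and 9 without Mock replicate 1.

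With the replicate number as a block the counts were 0 and 19. Deviations of same-numbered LRP6KO and Cas9 libraries correlated at -0.13, -0.08 and 0.12, and LRP6KO replicate 1 correlated best with Cas9 replicate 2 (0.24). Deviations from the mean of only 3 libraries depend on each other, so these values cannot decide whether the numbers pair the samples.

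Differences of LRP6KO against Cas9 near 0 changed sign with 1 library left out: LRP5 ran from -0.173 to 0.0438 (and was 0.0937 with array weights), TCF7 from -0.0937 to 0.0439, CTNNB1 from -0.119 to 0.0469, RNF43 from -0.246 to 0.220, ZNRF3 from -0.218 to 0.167, NKD1 from -0.00142 to 0.382 and MGMT from -0.118 to 0.0561. The AXIN2 difference ran from -0.273 to -0.0858 and that of LGR5 from -0.460 to -0.0656. The median of the chromosome X window was 0.41 to 0.53 with 1 library left out and 0.39 with median-ratio scaling, and that of the chromosome 9 window from 20 Mb was -0.53 to -0.40, and -0.37 with genes of at least 1 TPM. Without a depth, values near 0 TPM cannot be told from absence. Of the 25 gene lists, 15 had a median that changed sign under at least 1 alternative, and 10 kept 1 sign under every one run, among them the Notch, interferon, hypoxia and intestinal differentiation lists.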
